A study of Mus musculus with 18 samples.

Results

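The genes described here are the EGF receptor family of the mouse, the receptors Egfr, Erbb2, Erbb3 and Erbb4, and 6 of their ligands, Egf, Areg, Ereg, Hbegf, Tgfa and Btc. They were listed by name. The family was chosen by the R1E adriamycin values of Egfr on these same arrays, where Egfr was higher than in mock. The R1E changes of Egfr are given as a description with no test. The other genes were listed as its relatives and ligands, with earlier results of these data known. Each gene was read from a probe set that names that gene alone. Of the 10 listed genes 9 had such a probe set, 1 each, among 19935 genes in all. Areg was not analysed here.

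RNA was measured on 18 whole-transcript arrays of mouse embryonic stem cells grown with serum and leukemia inhibitory factor. R1E, a mouse embryonic stem cell line, was mock treated, given 0.5 µM adriamycin (also named doxorubicin, which traps topoisomerase II on DNA and leaves strand breaks) for 8 hours, or exposed to 25 J/m² of ultraviolet light (UV) and collected at 8 hours, with n = 4 arrays per group. A p53-/- embryonic stem cell line on a 129X1 x 129S1 background was left untreated or given the same dose of adriamycin for the same time, with n = 3 arrays per group. The labels say neither how p53 was lost, nor whether the line is 1 clone, nor whether arrays came from separate cultures, so p-values here reflect array-to-array spread alone, possibly a technical one. The level of Trp53 itself was not analysed here. R1E and p53-/- arrays were normalized separately, so levels were tested within a set only. Between the sets, genotype, cell line, processing and the kind of control (mock or untreated) cannot be told apart.

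EGF receptors are transmembrane tyrosine kinases that pair up when a ligand binds and then signal through RAS and ERK and through PI3 kinase. EGF, amphiregulin and TGF-alpha bind the EGF receptor, while HB-EGF, betacellulin and epiregulin bind ERBB4 as well. ERBB2 binds no known ligand and acts as the partner of the others, and ERBB3 has a very weak kinase and is activated by neuregulins. In embryonic stem cells ERK activity favours the exit from self-renewal. EGFR and HBEGF have been described as p53 targets in other cells.

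Egfr was the only receptor that stood higher after adriamycin in R1E. The mock arrays read 5.82, 5.67, 5.81 and 5.82 on the log2 intensity scale, the UV arrays 6.59, 6.64, 6.47 and 6.54, and the adriamycin arrays 8.74, 8.68, 8.76 and 8.71. The 3 groups did not overlap, with mock lowest and adriamycin highest. The log2 change after adriamycin was 2.95 ± 0.05 (standard error, SE), or 7.70-fold with a 95% interval from 7.13 to 8.32. It was the 17th largest rise of the 19935 genes. This interval and rank are a description and take no account of the choice of the family by these values. After UV the log2 change was 0.78 ± 0.05, or 1.72-fold (95% interval 1.59 to 1.86). The R1E comparisons share arrays, so their changes are not independent of each other.

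In the p53-/- line, whose arrays played no part in the choice of the family, no rise of Egfr was detected. The untreated arrays read 6.04, 6.11 and 5.80 and the adriamycin arrays 5.95, 6.28 and 6.17. The groups overlapped. The log2 change was 0.15 ± 0.14 (limma, adjusted p = 0.717), with a 95% interval from -0.15 to 0.46. The upper end of that interval is a 1.37-fold rise. Subtracting the p53-/- change from the R1E change gave 2.79 ± 0.15 on the log2 scale, a value that is not tested because it contains the R1E rise.

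**Figure D1:**
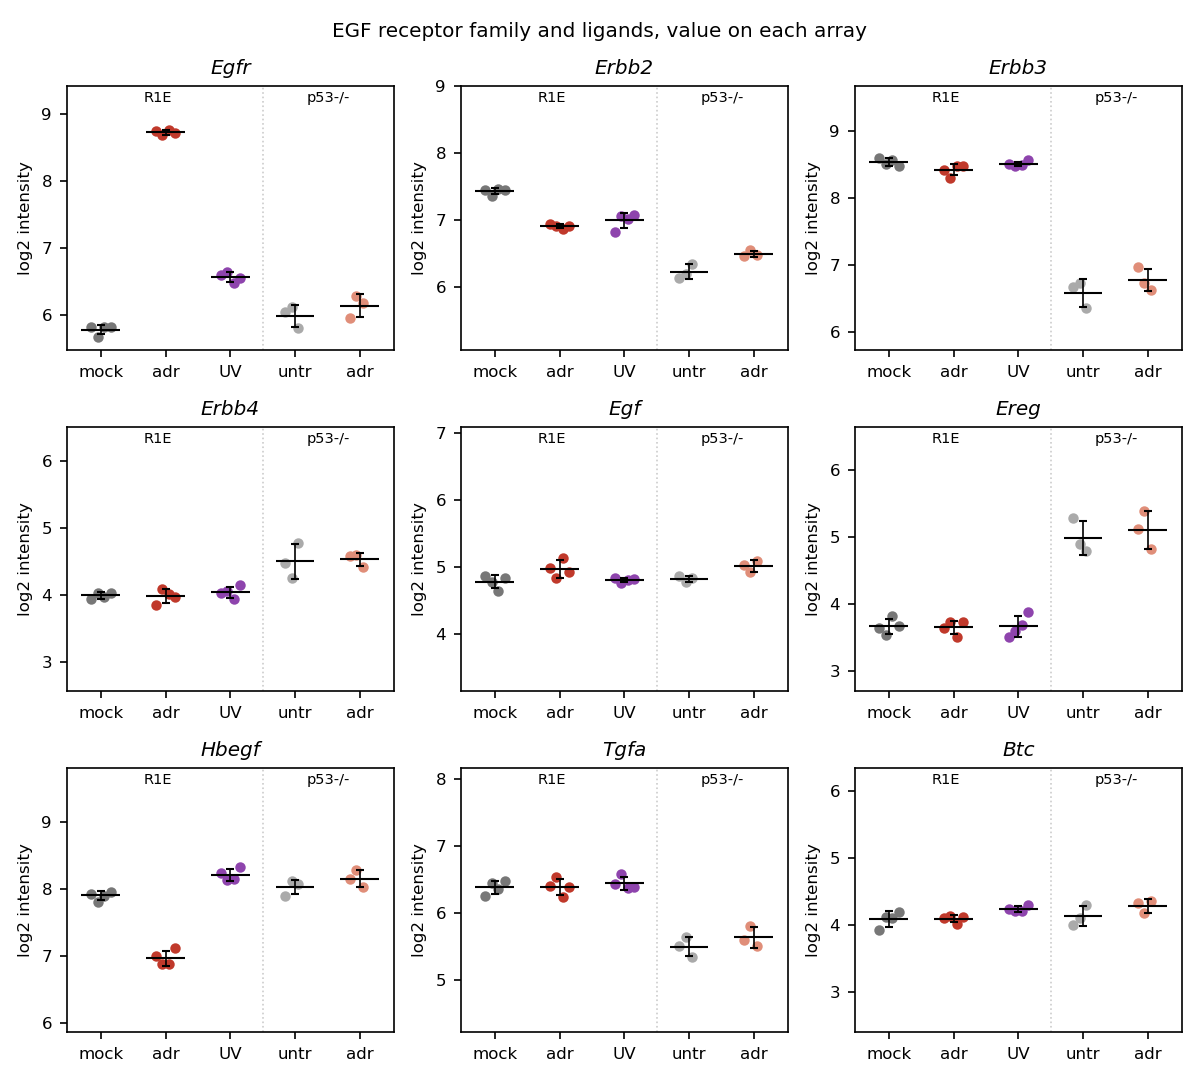
Log2 intensity (vertical axes, each spanning the same range) of the 9 measured genes on each array, by group, with points for arrays, horizontal lines for group means and bars for SD (n = 4 in R1E, n = 3 in p53-/-), the sets either side of the dotted line being normalized separately. Egfr stands near 8.72 in the R1E adriamycin group against 5.78 in mock, while Hbegf stands at 6.96 against 7.90.

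Erbb2, the receptor that serves as the shared partner, fell after both treatments in R1E. The mock arrays read 7.45, 7.36, 7.47 and 7.45, the adriamycin arrays 6.94, 6.91, 6.87 and 6.91, and the UV arrays 6.83, 7.06, 7.02 and 7.08. Every treated array lay below every mock array, and the adriamycin and UV arrays overlapped. The log2 change was -0.52 ± 0.06 after adriamycin, 1.44-fold lower (limma, adjusted p = 6.43e-07), and -0.43 ± 0.06 after UV, 1.35-fold lower (limma, adjusted p = 7.91e-06). The direct difference between adriamycin and UV was -0.09 ± 0.06 (adjusted p = 0.219, 95% interval -0.21 to 0.03).

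On the p53-/- arrays Erbb2 read 6.14, 6.20 and 6.35 untreated and 6.46, 6.55 and 6.48 with adriamycin. The treated arrays all lay above the untreated ones, a separation in that direction seen in 12.3% of all genes in that set. The log2 change of 0.27 ± 0.12 had an unadjusted p of 0.0499 and was not called after adjustment over all genes (limma, adjusted p = 0.429). The adriamycin effect on Erbb2 differed between the lines by -0.79 ± 0.14 (limma effects with each set's own spread, adjusted p = 0.000325).

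The start regions of Egfr and Erbb2 are shown because these receptors moved in opposite directions after adriamycin. Each run covers 250 bases before to 50 bases after the RefSeq start on assembly GRCm38.p6, plus strand, Egfr at chr11:16751953-16752252 and Erbb2 at chr11:98412234-98412533. Capitals mark matches to the GC box (GGGCGG, either strand) and to the p53 half-site.
Egfr: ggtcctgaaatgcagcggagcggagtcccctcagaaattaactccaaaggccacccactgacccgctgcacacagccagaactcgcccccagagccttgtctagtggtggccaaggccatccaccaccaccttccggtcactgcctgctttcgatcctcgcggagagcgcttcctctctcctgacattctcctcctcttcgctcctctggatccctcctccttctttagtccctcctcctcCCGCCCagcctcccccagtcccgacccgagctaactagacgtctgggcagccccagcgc
Erbb2: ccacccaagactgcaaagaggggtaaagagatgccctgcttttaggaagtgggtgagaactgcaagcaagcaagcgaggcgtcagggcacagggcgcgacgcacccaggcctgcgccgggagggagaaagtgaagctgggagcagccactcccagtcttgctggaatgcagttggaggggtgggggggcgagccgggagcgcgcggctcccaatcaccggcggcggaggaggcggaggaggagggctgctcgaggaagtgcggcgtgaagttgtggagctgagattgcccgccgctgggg
The Egfr window holds 1 GC box, on the reverse strand with its first base at -9 from the start, and the Erbb2 window holds none. A GC box is present in 35.7% of the 32851 windows of this length. Neither window holds a match to the p53 half-site on either strand, against 8.36% of all windows, to TATAAA (13.6%) or to the AP-1 site TGANTCA (7.81%). Only exact matches within these windows were looked for. The search therefore cannot tell whether a p53 site lies further upstream, within an intron or with a mismatch. GC content was 62.3% for Egfr and 66.0% for Erbb2, against a median of 52.7%. Of the 10 listed genes 7 had a window that was searched, and Erbb3, Ereg and Hbegf were not searched. The distal of 2 Egf windows held 1 p53 half-site match, the Areg window held a TATA box, and the Areg and Tgfa windows held 2 GC boxes each.

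Erbb3, the receptor with the weak kinase, did not pass the test in any comparison. Mock arrays read 8.59, 8.50, 8.56 and 8.47, adriamycin arrays 8.42, 8.30, 8.47 and 8.47, and UV arrays 8.50, 8.48, 8.49 and 8.56. The adriamycin and mock ranges met at 8.47. The log2 change after adriamycin was -0.11 ± 0.05 (limma, adjusted p = 0.0958, 95% interval -0.22 to 0). It passed, at -0.24 (adjusted p = 0.000885), when each array was centred on its median. After UV it was -0.02 ± 0.05 (adjusted p = 0.794).

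Erbb4, a receptor for neuregulins and several EGF-type ligands, was dim. Its highest group mean, 4.05 in R1E, lay under the median gene level of that set, 6.01. The mock arrays lay between 3.95 and 4.04, the adriamycin arrays between 3.85 and 4.10 and the UV arrays between 3.94 and 4.15, all overlapping. Log2 changes were -0.01 ± 0.06 after adriamycin (95% interval -0.14 to 0.12) and 0.05 ± 0.06 after UV (95% interval -0.08 to 0.17). The p53-/- change was 0.03 ± 0.15, and both the p53-/- value and the UV value turned below 0 with median centring or quantile normalization.

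Hbegf, which encodes the membrane-anchored heparin-binding EGF-like growth factor, moved in opposite directions after the treatments in R1E. The mock arrays read 7.93, 7.81, 7.90 and 7.96, the adriamycin arrays 6.99, 6.88, 6.88 and 7.11, and the UV arrays 8.23, 8.13, 8.14 and 8.33. The 3 groups did not overlap, with adriamycin lowest and UV highest. Adriamycin lowered it 1.92-fold, a log2 change of -0.94 ± 0.06 (limma, adjusted p = 2.18e-09), and UV raised it 1.24-fold, by 0.31 ± 0.06 (limma, adjusted p = 0.000789). The direct difference between adriamycin and UV was -1.24 ± 0.06, or 2.37-fold (limma, adjusted p = 3.26e-10). Both directions held under every scaling tried, quantile normalization and median centring included.

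The p53-/- arrays of Hbegf read 7.90, 8.11 and 8.07 untreated and 8.15, 8.28 and 8.03 with adriamycin. These groups overlapped, and the log2 change was 0.13 ± 0.13 (limma, adjusted p = 0.753, 95% interval -0.15 to 0.40). The adriamycin effect differed between R1E and p53-/- by -1.06 ± 0.14 (limma effects with each set's own spread, adjusted p = 2.39e-05). Egfr and Hbegf stood on opposite sides of mock after adriamycin in R1E and on the same side after UV.

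The other ligand genes moved little. Egf, the founding ligand, read 4.86, 4.77, 4.64 and 4.83 in mock and 4.98, 4.83, 5.14 and 4.93 after adriamycin. The ranges overlapped, and the log2 change of 0.19 ± 0.07 passed the test (limma, adjusted p = 0.0229), a 1.14-fold rise. This call ended with quantile normalization (0.10, adjusted p = 0.28), with median centring (0.07, adjusted p = 0.372), without mock replicate 3 (0.15, adjusted p = 0.0906) and without adriamycin replicate 3 (0.13, adjusted p = 0.0879). Egf read 4.86, 4.77 and 4.83 in untreated p53-/- cells and 5.03, 4.92 and 5.09 with adriamycin, without overlap. That log2 change was 0.19 ± 0.12 and was not called (limma, adjusted p = 0.563). The difference between the lines was 0.00 ± 0.14 (adjusted p = 0.995).

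Btc, encoding betacellulin, changed by 0.01 ± 0.06 after adriamycin in R1E (limma, adjusted p = 0.951). After UV it read 4.24, 4.22, 4.21 and 4.30 against 3.93, 4.13, 4.11 and 4.20 in mock. The UV arrays all lay above the mock arrays, and the log2 change of 0.15 ± 0.06 passed narrowly (limma, adjusted p = 0.0443). That call ended in 13 of 19 alternatives. It ended without any 1 of mock replicates 1 to 3, adriamycin replicates 1 and 4 or UV replicates 1 to 4, with adjusted p from 0.0531 to 0.17 and changes from 0.10 to 0.16. It also ended with quantile normalization (adjusted p = 0.139) and median centring (adjusted p = 0.336).

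Tgfa, encoding transforming growth factor alpha, lay between 6.25 and 6.47 in mock, 6.24 and 6.53 after adriamycin and 6.36 and 6.58 after UV, all overlapping. Its log2 changes were 0.01 ± 0.07 (95% interval -0.14 to 0.16) and 0.06 ± 0.07 (95% interval -0.09 to 0.21). With quantile normalization and with median centring the adriamycin value turned to -0.09 and -0.11, still not called. Ereg, encoding epiregulin, lay between 3.5 and 3.87 on all 12 R1E arrays, with log2 changes of -0.01 ± 0.08 after adriamycin and 0.00 ± 0.08 after UV. Egf, Ereg and Btc, like Erbb4, had every group mean under the median gene level of their set; array differences are compressed at low brightness.

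**Figure D2:**
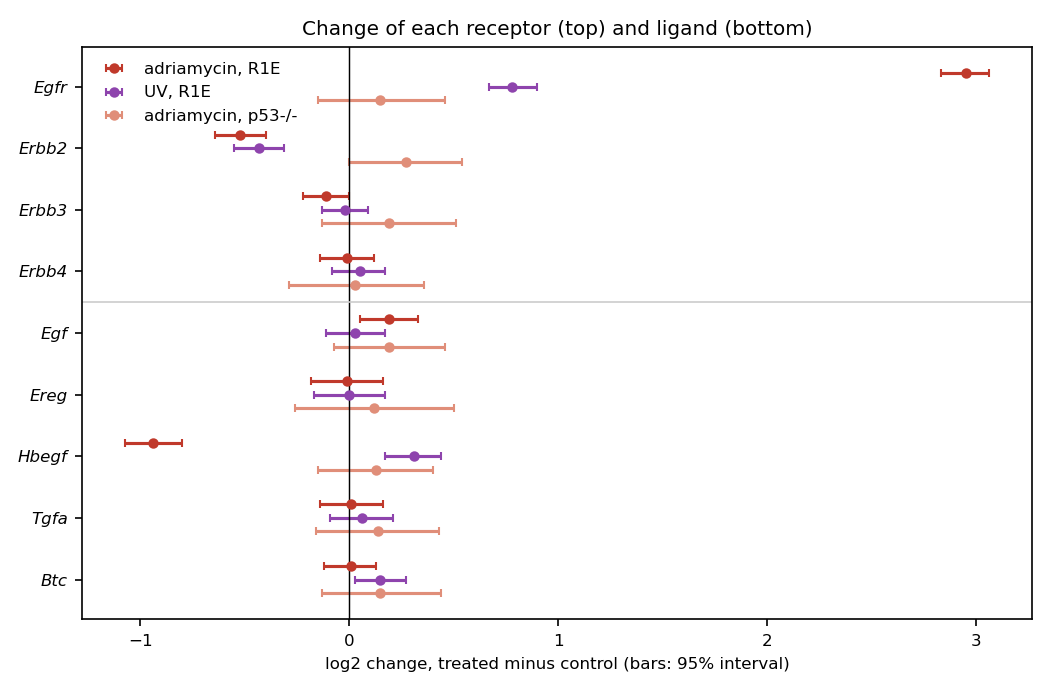
Log2 change (horizontal axis) of the 4 receptors and 5 ligands after adriamycin and UV in R1E and after adriamycin in p53-/- cells; points are estimates and bars 95% intervals. In R1E after adriamycin Egfr lies far to the right at 2.95, Hbegf (-0.94) and Erbb2 (-0.52) lie to the left of 0, and the p53-/- intervals all span 0 except that of Erbb2, whose lower end lies at 0.

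Of the 8 measured genes other than Egfr, 1 rose and 2 fell after adriamycin in R1E (Egf, Erbb2 and Hbegf), at an adjusted p under 0.05 (limma). Of all genes 47.7% were called in that comparison, 22.1% higher and 25.6% lower, so the share of the family called, 37.5%, was no larger than that of genes at large. After UV 2 rose and 1 fell (Hbegf, Btc and Erbb2), where 43.9% of all genes were called, 22.6% higher and 21.2% lower. For adriamycin against UV 1 of 8 was called, Hbegf, which was lower, against 42% of all genes, 19.8% higher and 22.2% lower. Groups did not overlap for 2 of the 8 genes after adriamycin (both lower), against 45.6% of all genes, 20.8% higher and 24.8% lower. After UV they did not overlap for 3, 2 higher and 1 lower, against 40.7% of all genes, 20.6% higher and 20.2% lower. Between adriamycin and UV they did not overlap for 3, Hbegf, Erbb3 and Btc, all lower after adriamycin, against 38.3% of all genes, 18.4% higher and 19.9% lower. The median log2 change of the 8 genes was -0.01 after adriamycin and 0.04 after UV, against -0.02 and 0.03 for all genes. With each array centred on its median the all-gene medians were -0.14 and -0.05. The share of calls that were higher was then 25.4% in place of 46.3% after adriamycin, 35.3% in place of 51.6% after UV, and 34.7% in place of 47.2% for adriamycin against UV.

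After adriamycin in p53-/- cells none of the 9 genes was called (limma), and 1 of them, Erbb2, had an unadjusted p under 0.05. Of all genes 0.0953% were called there, 0.015% higher and 0.0803% lower, and 2319 of 19935 had an unadjusted p under 0.05. That count of calls, 19, became 442 without untreated replicate 3 and 1438 with array weights. It was 6 and 5 without untreated replicates 1 and 2, and 0, 0 and 1 without adriamycin replicates 1, 2 and 3. None of the 9 genes was called under any of these. Groups did not overlap for 2 of the 8 genes other than Egfr, Erbb2 and Egf, both higher, against 17.5% of all genes, 12.3% higher and 5.22% lower. All 9 estimates were above 0, with a median of 0.15 against 0.06 for all genes, of which 62.6% were above 0. The p53-/- arrays spread more, with a median SE of a change of 0.140 against 0.0634 in R1E, which widens every p53-/- interval. The difference of adriamycin effects was called for 2 of the 8 genes other than Egfr, Erbb2 and Hbegf, both lower in R1E, where 21.7% of all genes were called, 10.4% higher and 11.4% lower.

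The remaining ligands of the family, the neuregulins and epigen, showed small changes. Nrg2, which encodes a neuregulin that binds ERBB3 and ERBB4, read 6.13, 6.02, 6.16 and 6.17 in mock and 6.57, 6.59, 6.43 and 6.65 after adriamycin, with no overlap. It rose 1.36-fold (log2 change 0.44 ± 0.06, limma, adjusted p = 7.3e-06) and had a change of -0.18 ± 0.12 in p53-/- cells (adjusted p = 0.61). The effects differed by 0.62 ± 0.14 (adjusted p = 0.00285). Nrg4 rose 1.12-fold after adriamycin in R1E (adjusted p = 0.0215), a call lost with quantile normalization (adjusted p = 0.214) and median centring (adjusted p = 0.565), and without mock replicate 2 (0.14, adjusted p = 0.0739) or adriamycin replicate 3 (0.12, adjusted p = 0.0842). Nrg1, Nrg3 and Epgn were not called after adriamycin, with changes from 0.05 to 0.08. After UV Nrg4 was lower, a log2 change of -0.19 ± 0.05 (limma, adjusted p = 0.0106), opposite to its adriamycin change, and Nrg3 rose by 0.23 ± 0.07 (limma, adjusted p = 0.0157), a call that ended with median centring. Nrg1, Nrg2 and Epgn were not called after UV, at -0.06, -0.13 and 0.01, and Nrg2 passed with quantile normalization (-0.2), median centring (-0.21) and without mock replicate 2 (-0.17).

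In the RefSeq order of protein-coding genes Epgn, Ereg, Areg and Btc lie next to one another on chromosome 5, and none of the 3 measured ones was called after adriamycin in R1E. Parm1, the gene beyond Btc, rose by 0.93 ± 0.07 (limma, adjusted p = 9.58e-09). Near Erbb2 on chromosome 11, Mien1 (-0.34 ± 0.10, limma, adjusted p = 0.00703) and Grb7 (-1.72 ± 0.06, adjusted p = 3.02e-13) on one side were lower after adriamycin. Ikzf3, next beyond Grb7, was at -0.02 ± 0.05 and not called. Pgap3 (0.02 ± 0.06), Pnmt (0.19) and Tcap (-0.03) on the other side were not called either. Called neighbours of other members included Rchy1 near Btc (0.81), Lancl1 near Erbb4 (1.03), and Pcyox1 (1.26) and Fam136a (-0.91) near Tgfa. Of all genes 47.7% were called in this comparison. Grb7 encodes an adaptor that binds phosphorylated ERBB2. Of the 3 nearest genes on each side of Egfr, 4 were measured, and their changes lay between -0.17 and -0.04. Vstm2a was called lower (-0.17, limma, adjusted p = 0.0204), and Fbxo48, Plek and Cnrip1 were not called. Neighbours were looked at after the members' values were known.

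Genes around the receptors were taken from 5 lists, drawn up with earlier results of these data known, so their counts are a description. The all-gene shares beside them include dim genes, those with every group mean under the median gene level of the set. With these left out, 7738 of 10497 genes were called after adriamycin in R1E and 7238 of 10497 after UV. The part of brightness in the list shares was not tested. All 18 measured genes read out by ERK signalling were called after adriamycin in R1E (limma), 14 lower and 4 higher, where 47.7% of all genes were called, 25.6% lower and 22.1% higher. Their median log2 change was -0.79 against -0.02 for all genes. Emp1 fell 6.19-fold and Etv1, an ETS transcription factor, 4.24-fold (limma, adjusted p = 4.23e-12 and 4.56e-12), while the AP-1 genes Fosl1 and Fos rose 3.89-fold and 2.09-fold. After UV 6 rose and 7 fell, where 43.9% of all genes were called, with a median of 0.08 against 0.03 for all genes. On the p53-/- arrays none of the 18 was called (limma), 4 had an unadjusted p under 0.05, and the median was 0.10. Of all genes 0.0953% were called there, 2319 of 19935 had an unadjusted p under 0.05, and the median was 0.06. For the difference between the lines 11 were lower in R1E and 2 higher, where 21.7% of all genes were called, among them Emp1 at -2.37 and Fosl1 at 1.55 (adjusted p = 4.04e-10 and 1.37e-06).

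Of 34 measured adaptors and effectors 11 rose and 15 fell after adriamycin in R1E, 76.5% of the list against 47.7% of all genes, with a median of -0.08. Eps8, an EGF receptor substrate that links to RAC, rose 2.07-fold (log2 change 1.05 ± 0.05, adjusted p = 3.13e-11), and the SH2 adaptor Nck2 rose 1.69-fold. Grb7 fell 3.30-fold and the SRC-family kinase gene Yes1 1.67-fold. Eps8 and Grb7 differed between the lines by 1.2 and -1.87 (adjusted p = 1.85e-05 and 2.32e-06). After UV 8 rose and 18 fell, again 76.5% of the list, against 43.9% of all genes, with a median of -0.15, and with median centring 5 rose.

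Of 21 measured genes of ligand shedding and receptor trafficking 7 rose and 5 fell after adriamycin, 57.1% of the list against 47.7% of all genes. Adam8, a membrane metalloprotease gene, rose 4.91-fold (log2 change 2.30 ± 0.06, limma, adjusted p = 1.85e-14) and Mmp2 2.03-fold. Adam10, a sheddase of EGF and betacellulin, was lower by 0.42 ± 0.06 (a log2 change of -0.42, adjusted p = 1.49e-05), and Adam19 fell 1.44-fold. With median centring 10 of the 21 were lower after adriamycin in place of 5. After UV 9 rose and 4 fell, 61.9% of the list against 43.9% of all genes. Adam8 rose 3.46-fold after UV (limma, adjusted p = 1.17e-12) and Mmp2 1.35-fold.

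Of 31 measured genes of receptor endocytosis and inhibition 9 rose and 10 fell after adriamycin, 61.3% of the list against 47.7% of all genes, with a median of 0.07. Ptprj, a receptor phosphatase gene, rose 2.43-fold and Rnf41, the ubiquitin ligase that acts on ERBB3, 1.56-fold, with adjusted p = 3.47e-10 and 3.91e-09 (limma). The feedback inhibitor Spry2 fell 2.96-fold and Cblb, a ubiquitin ligase of activated receptors, 1.42-fold (adjusted p = 3.79e-13 and 1.89e-06). After UV 7 rose and 16 fell, 74.2% of the list against 43.9% of all genes, with a median of -0.18. Between the p53-/- groups no gene of these 3 lists or of the neuregulin list was called (limma). An unadjusted p under 0.05 was reached by 3, 2, 3 and 1 genes in adaptors, shedding, endocytosis and neuregulins. Of all genes 0.0953% were called there, and 2319 of 19935 had an unadjusted p under 0.05.

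**Figure D3:**
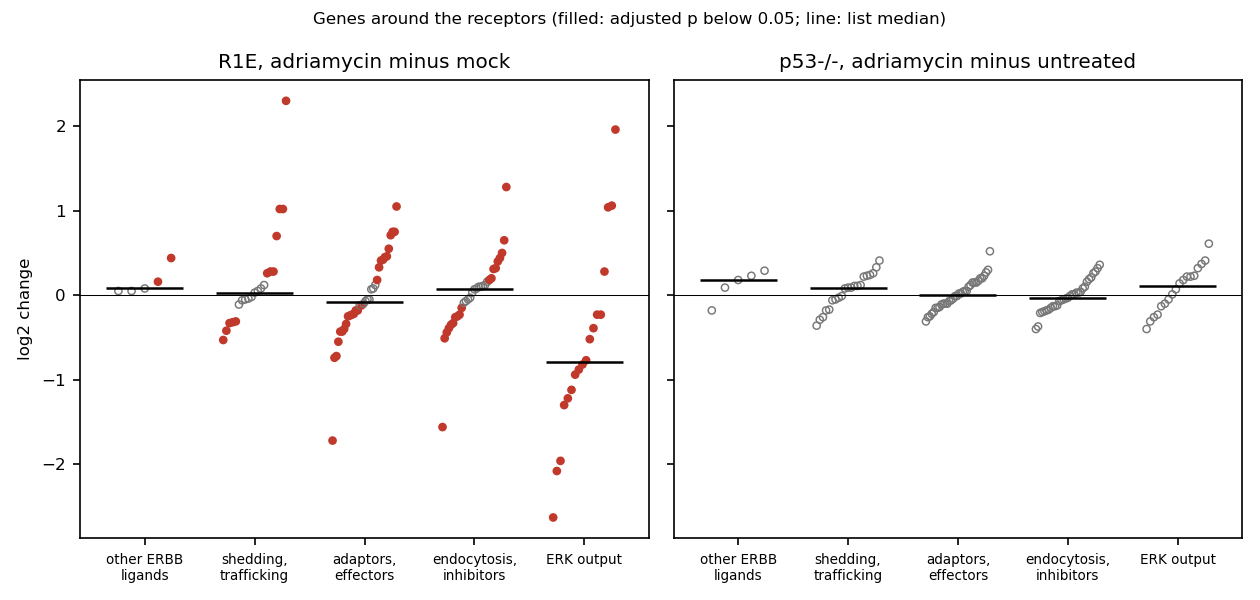
Log2 change (vertical axis) after adriamycin of each gene in the 5 lists around the receptors, in R1E (left) and p53-/- cells (right); filled points passed an adjusted p of 0.05, open points did not, and lines are list medians. In R1E the ERK output genes have a median of -0.79. In p53-/- cells no point is filled, where 0.0953% of all genes were called.

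Receptor tyrosine kinases outside the family gave a setting for the receptors. Of 48 measured others 17 rose and 16 fell after adriamycin in R1E, 68.8% of the list. Of all genes 47.7% were called, and with dim genes left out 7738 of 10497. The 48 others had a median of -0.02, and with median centring 26 fell. Ordered with them by change, Egfr came first of 52, Erbb4 24th, Erbb3 34th and Erbb2 46th, a description only. Fgfr4, a fibroblast growth factor receptor gene, rose 4.53-fold and the collagen receptor gene Ddr1 3.40-fold (limma, adjusted p = 6.69e-14 and 1.14e-13). The ephrin receptor gene Ephb4 fell 2.13-fold and the insulin-like growth factor receptor gene Igf1r 1.79-fold. After UV Egfr ranked 3 of 52, behind Fgfr4 and Ddr1, and in p53-/- cells it was 14th. None of the 48 was called in p53-/- cells (limma), and 5 had an unadjusted p under 0.05. Of all genes 0.0953% were called there, and 2319 of 19935 had an unadjusted p under 0.05.

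**Figure D4:**
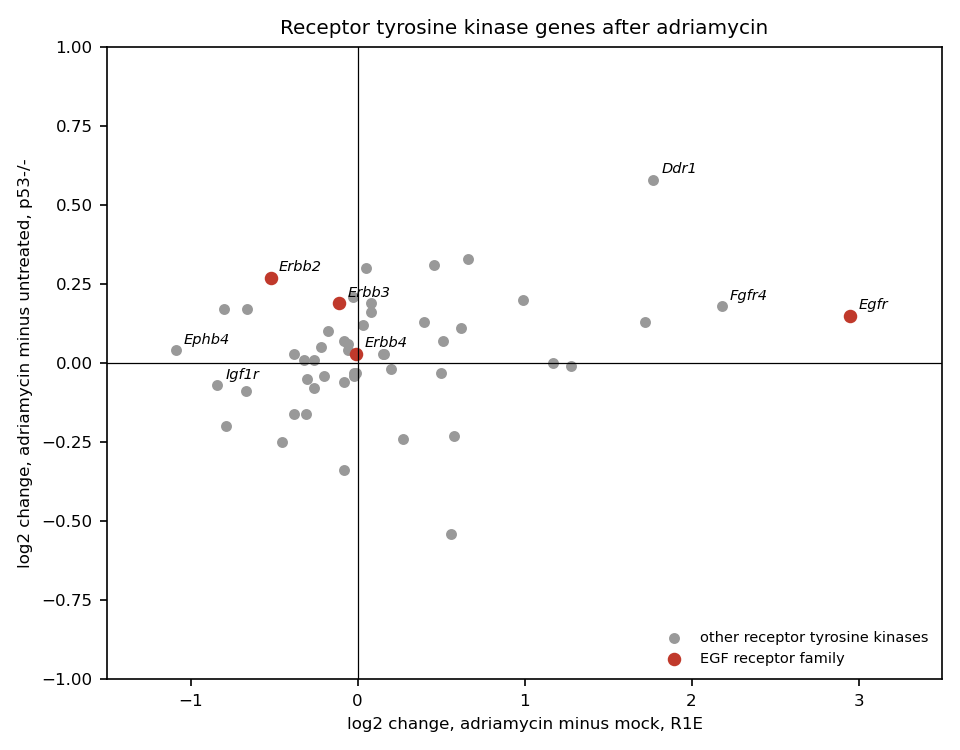
Log2 change after adriamycin in R1E (horizontal axis) and in p53-/- cells (vertical axis) for the 4 EGF receptor genes (red) and 48 other receptor tyrosine kinase genes (grey), 1 point per gene. Egfr lies at 2.95 and 0.15, Erbb2 at -0.52 and 0.27, with Fgfr4 and Ddr1 nearest to Egfr on the horizontal axis.

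The genes whose levels followed Egfr most closely over the 12 R1E arrays, out of 1262 whose R1E group means spanned at least 1 on the log2 scale, were Neb (Pearson r = 0.997), Map3k20 (0.997), Tulp4 (0.996), Dlg5 (0.996) and Ptk2b (0.996). Egfr itself and any clone and prediction names were counted among the 1262 but left out of this ranking. The 12 arrays hold 3 groups, and 39 of the genes ranked had an r above 0.99, so the likeness is that of the 3 group levels. After adriamycin these 5 genes were higher by 1.31 to 2.17 and after UV by 0.34 to 0.66 on the log2 scale. A larger rise after adriamycin than after UV follows from their choice by likeness to Egfr on these arrays. The p53-/- changes of the 5 genes lay between -0.28 and 0.21, and limma gave adjusted p from 0.564 to 0.905. Of all genes 0.0953% were called there.

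Egfr and Erbb4 are the long genes of the family, with spans of 161.7 and 1077 kb in the RefSeq table. Among the 2294 genes longer than 100 kb, 48.2% were called lower after UV and 8.76% higher, and their median change was -0.14. The UV change was 0.78 for Egfr, which was not tested, and 0.05 for Erbb4, which was not called. The other 7 members span from 10.88 to 80.71 kb.

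Markers of the labelled cell type were present on every array. All 12 embryonic stem cell markers had group means above the median gene level in all 5 groups. After adriamycin in R1E 11 of the 12 were called lower (limma), where 25.6% of all genes were called lower and 22.1% higher. The 12 markers had a summed intensity from 19300 to 20900 against 28500 to 29400 in mock and 24300 to 24900 after UV. In bulk RNA fewer cells of a type and less RNA per cell cannot be told apart. The p53-/- sum lay between 18100 and 19200 untreated and 18100 and 18600 with adriamycin.

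Of 10 epithelial markers, a cell type in which Egfr is abundant, 5 rose and 3 fell after adriamycin in R1E. That was 80% of the list against 47.7% of all genes (limma). With dim genes left out, 7738 of 10497 genes were called in that comparison. Krt5, Itgb4, Krt15, Krt19 and Lamb3 rose, Krt5 by 3.05 on the log2 scale, while Epcam, Cdh1 and Grhl2 fell and the epithelial factor Trp63 was at -0.05. The summed epithelial intensity was 3280 to 3450 after adriamycin and 2990 to 3040 in mock. Fibroblast markers (11 of 12 measured) summed to 452 to 506 in mock, 504 to 558 after adriamycin and 495 to 546 after UV, with 2 higher and 1 lower after adriamycin. On p53-/- arrays they summed to 2350 to 2880 untreated and 2000 to 2500 with adriamycin. Trophectoderm markers summed to 1390 to 1510 in mock and 1200 to 1230 after adriamycin (1 of 10 higher, 3 lower). Primitive endoderm markers summed to 1190 to 1250 and 961 to 1100 (1 of 11 higher, 4 lower), and neurectoderm markers to 653 to 728 and 436 to 477 (none of 7 higher, 3 lower). After adriamycin in R1E the share called (limma) was 27.3% of fibroblast, 40% of trophectoderm, 45.5% of primitive endoderm and 42.9% of neurectoderm markers. None of these shares was larger than the 47.7% of all genes called there. On p53-/- arrays trophectoderm markers summed to 1800 to 2030 untreated and 2100 to 2550 with adriamycin. Primitive endoderm markers summed to 2830 to 3060 untreated and 2070 to 2520 with adriamycin. Neurectoderm markers summed to 543 to 625 and 654 to 709, and epithelial markers to 1760 to 1990 and 1900 to 1970. No marker was called there (limma), where 0.0953% of all genes were called. An unadjusted p under 0.05 was reached by 5 of 11 primitive endoderm markers, whose median log2 change was -0.29. That count was 2 for stem cell, 1 for fibroblast, 2 for trophectoderm, 1 for epithelial and 1 for neurectoderm markers, and 2319 of 19935 for all genes. In untreated p53-/- cells 9 fibroblast and 9 primitive endoderm markers lay above the median gene level, against 3 and 5 in R1E mock. The part of these markers in the changes of Egfr, Erbb2 and Hbegf was not tested.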

How the data were processed

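The authors deposited log2 intensity values already normalized, with 1 value for each probe set on each array. The submitters' processing notes name Affymetrix Expression Console 1.1 for R1E (algorithm: not given in the sources used here), and Partek 6.4 and RMA for p53-/-. Array medians lay between 5.30 and 5.61. Of 28853 probe sets 21780 had values on all arrays and 1 gene symbol, 1605 had several and 5430 none; per gene the probe set with the highest mean over 18 arrays was used. Changes were fitted in limma 3.58.1 (R 4.3.3) over all 19935 genes, R1E in 1 fit of 12 arrays and p53-/- in 1 of 6, and called at a Benjamini-Hochberg adjusted p under 0.05. The difference between lines was the difference of the 2 effects, with each set's own moderated spread and Welch-Satterthwaite degrees of freedom. No filter was applied. Scripts were tested on simulated data.

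The members and lists were chosen with earlier results of these data known. Named list genes are the 2 largest called rises and falls after adriamycin in R1E. Sequences are from RefSeq (GRCm38.p6). Alternatives covered scaling, centring, a dim-gene filter, the probe, the eBayes prior, array weights, a replicate block, the arrays fitted and each array left out.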

Additional observations from a re-analysis of the deposited data

Results flagged for a closer look

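Egfr on R1E mock replicate 2 read 5.67, where the other 3 mock arrays read 5.81 to 5.82, a gap of 0.929 of the group's range. Without it the Egfr change was 2.91 after adriamycin and 0.75 after UV. By chance about 1 in 20 groups passes the limit used to pick out such gaps.

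The adriamycin effect differed between R1E and p53-/- cells for Erbb2 by -0.79 (adjusted p = 0.000325) and for Hbegf by -1.06 (adjusted p = 2.39e-05), from limma effects with each set's own spread. All 4 treated R1E arrays lay below the mock mean for both genes, and all 3 treated p53-/- arrays lay above the untreated mean. For Hbegf the p53-/- groups overlapped, with the lowest treated array at 8.03 against an untreated mean of 8.027. Neither p53-/- change was called, and 62.6% of all genes had an estimate above 0 in that set.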

How the results depend on the processing

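Erbb2 and Hbegf kept their calls and directions after adriamycin and after UV in R1E, and in the difference between the lines, in all 20, 20 and 27 alternatives. Hbegf ranged from -1.06 to -0.91 after adriamycin and from 0.23 to 0.33 after UV, Erbb2 from -0.65 to -0.51 and from -0.51 to -0.38. Egfr ranged from 2.82 (median centring) to 2.96 after adriamycin and from 0.71 to 0.81 after UV, and in p53-/- cells from 0.03 to 0.24 without a call. For adriamycin against UV, 1 of 8 genes was called, but 4 with median centring (Erbb2, Erbb3 and Btc added) and 2 with only the groups compared; with single arrays left out the count lay between 1 and 2.

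Values that were not called changed sign as follows. After adriamycin in R1E, Tgfa was at -0.09 and -0.11 and Btc at -0.02 and -0.12 with quantile normalization and median centring. After UV, Erbb3 was at 0.02 and Erbb4 at -0.01 with quantile normalization, Egf at -0.06, and with median centring Erbb4 at -0.03, Egf at -0.05 and Tgfa at -0.02; Ereg was at 0.01 with array weights. Ereg in adriamycin against UV was at 0.04 with quantile normalization. In p53-/- cells Erbb4 was at -0.05 and -0.06. In the difference between lines Erbb4 was at 0.03 with quantile normalization, Egf at 0 with it and with array weights, and Nrg4 at 0.11 with array weights. Tgfa, Ereg, Btc, Egf and Erbb4 were left out by the dim-gene filter in one or both sets and have no value there. With single arrays left out, uncalled values crossed 0 within these ranges: after adriamycin in R1E, Erbb4 from -0.05 to 0.03, Ereg from -0.06 to 0.04, Tgfa from -0.04 to 0.06 and Btc from -0.05 to 0.04; after UV, Erbb3 from -0.04 to 0, Egf from -0.01 to 0.06, Ereg from -0.07 to 0.05 and Nck2 from -0.06 to 0.01; for adriamycin against UV, Ereg from -0.06 to 0.06 and Tgfa from -0.1 to 0; in p53-/- cells, Erbb4 from -0.09 to 0.17 and Ereg from -0.02 to 0.27; for the difference, Erbb4 from -0.18 to 0.08, Egf from -0.06 to 0.04, Ereg from -0.28 to 0.01 and Nrg4 from -0.1 to 0.08. The cause of these sign changes was not tested.

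With replicate numbers as a block, 3 of 8 genes were called after adriamycin, 3 after UV, 1 for adriamycin against UV, none in p53-/- cells and 2 for the difference, the counts without the block; over all genes the p53-/- calls went from 19 to 5, and to 1438 with array weights. Same-numbered arrays correlated between -0.142 and 0.191, so the numbers were not taken as pairs. With a shared spread over 18 arrays 5804 genes were called for the difference in place of 4331.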

Other observations

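Levels before treatment differed between the sets for some members. After array medians were aligned, Erbb3 stood 1.62 higher in R1E mock than in untreated p53-/- arrays on the log2 scale (deposited means 8.53 and 6.58), Erbb2 stood 0.87 higher, and Ereg stood lower, at -1.65 (deposited means 3.66 and 4.98). With the p53-/- values multiplied by 1.155, the ratio of the SDs of gene levels, these gaps were 1.46, 0.77 and -1.56. Of the other members Tgfa stood 0.56 higher in R1E mock after alignment. Egfr stood lower there, at -0.53, as did Erbb4 (-0.84), Hbegf (-0.45), Egf (-0.37) and Btc (-0.38). With the p53-/- values so multiplied the Egfr, Erbb4 and Hbegf gaps were -0.59, -0.67 and -0.83. All these gaps rest on the alignment, line and set cannot be told apart, and no test was made.

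A further probe set names Erbb2 together with Sympk and was not used. It averaged 3.68 ± 0.10 (SD, n = 4) in R1E mock, 3.79 ± 0.04 after adriamycin and 3.83 ± 0.02 after UV.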
